A study of Homo sapiens with 6 samples.

Results

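The genes described here encode the FOS and JUN proteins, which pair to form the transcription factor AP-1, and the zinc finger factors EGR1, EGR2 and EGR3. They were taken by symbol from the gene table of the series. All 10 were found, each once, among 20668 genes. They comprised 4 FOS family genes (FOS, FOSB, FOSL1 and FOSL2), 3 JUN family genes (JUN, JUNB and JUND) and 3 EGR genes. The study compared DNAJC12 knockout SH-SY5Y cells, made with CRISPR/Cas9, with wild-type (WT) SH-SY5Y cells by RNA-seq, with 3 libraries of each, and gave invasion by these cells as its subject. SH-SY5Y is a human neuroblastoma line with properties of sympathetic neuron precursors, and the DNAJC12 protein is an HSP70 co-chaperone of the J-domain family. Neither group received a treatment. The labels do not say which guide was used, whether the knockout cells were 1 clone or a pool, or whether the 3 libraries of a genotype came from separate cultures, so the p-values refer to library-to-library spread only, and that spread may be technical.

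FOS family proteins cannot pair with themselves and bind DNA as dimers with JUN family proteins, through a basic region and a leucine zipper. FOS, FOSB, JUN, JUNB and EGR1 are classic immediate early genes: serum, growth factors, depolarization and handling stress raise their RNA quickly and without new protein synthesis, largely through MAP kinases acting on serum response factor, its ETS partners and CREB. FOSL1 and FOSL2, which encode FRA1 and FRA2, respond later and more durably, and JUND is expressed more steadily. EGR proteins bind GC-rich sites and are held in check by the NAB corepressors. In neural crest derivatives, EGR2 is best known as the myelination factor of Schwann cells.

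The stretches just before the annotated starts of the 4 genes that rose in the knockout, and of EGR1, show which regulatory letters these promoters share. They come from RefSeq (GRCh38.p14), which gave windows for 8 of the 10 genes. FOS (chr14:75278728-75278827, + strand), FOSB (chr19:45467896-45467995, + strand), FOSL2 (chr2:28392758-28392857, + strand), JUN (chr1:58784048-58784167, - strand) and EGR1 (chr5:138465359-138465478, + strand) are printed 5′ to 3′, ending at the base before the start. Capitals mark TGACGT on either strand, TGACATCA, TATAAA and the CArG box, which serum response factor recognizes.
FOS: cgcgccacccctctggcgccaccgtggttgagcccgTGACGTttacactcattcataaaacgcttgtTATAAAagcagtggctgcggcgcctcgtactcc
FOSB: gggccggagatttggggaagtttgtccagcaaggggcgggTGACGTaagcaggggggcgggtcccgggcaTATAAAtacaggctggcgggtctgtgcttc
FOSL2: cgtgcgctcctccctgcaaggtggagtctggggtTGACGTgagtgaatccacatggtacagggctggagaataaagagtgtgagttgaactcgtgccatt
JUN: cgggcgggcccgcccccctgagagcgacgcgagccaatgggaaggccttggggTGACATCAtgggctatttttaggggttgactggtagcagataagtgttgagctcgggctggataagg
EGR1: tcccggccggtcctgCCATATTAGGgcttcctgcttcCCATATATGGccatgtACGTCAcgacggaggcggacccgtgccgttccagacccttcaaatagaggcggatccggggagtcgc

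Both strands of each window, 250 bases before to 50 after the start, were searched. TGACGT, the core of the cyclic AMP response element, lay in 5 of the 8 windows (FOS, FOSB, FOSL2, JUND and EGR1), against 8.32% of 27305 windows of the same length. In FOS, FOSB, FOSL2 and EGR1 it began at -64, -60, -66 and -67 relative to the start, and EGR1 had another at -136. JUN carried the related letters TGACATCA at -67, present in 2.71% of windows. The full element TGACGTCA, which contains TGACGT, occurred in JUND alone and in 1.98% of windows. Within these windows a CArG box was found in EGR1 alone, at -105 and -83, and in 1.29% of all windows. Sites more than 250 bases before a start were not searched, so the other promoters may hold a CArG box further upstream. TATAAA occurred in FOS, FOSB and JUNB and in 12.0% of windows, the AP-1 site TGANTCA in FOSL2 alone, 4 bases past the start, and in 7.76%, and the EGR site GCGNGGGCG in EGR1 alone and in 9.28%. TGACGT and TGACATCA were added to the search after the sequences had been read, and a match describes letters, not a bound site.

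In the libraries as a whole, totals ran from 19321842 to 21869659 counts, so a count was worth 0.0457 to 0.0518 CPM (counts scaled to the size of the library). DNAJC12 RNA was lower in every knockout library, with a mean of 5.54 ± 0.601 CPM in knockout and 21.5 ± 1.505 CPM in WT libraries (SD, n = 3). Of 16403 genes tested with edgeR's quasi-likelihood test, 4270 (26.0%) passed a Benjamini-Hochberg adjusted p of 0.05. Of these, 2383 (14.5%) were higher and 1887 (11.5%) lower in the knockout, and with library size in place of TMM scaling 2055 (12.5%) were higher and 2438 (14.9%) lower. The sympathoadrenal marker HAND2 was expressed in both groups, with 863 ± 87.3 CPM in knockout and 1057 ± 52.9 CPM in WT libraries (SD, n = 3). It was lower in the knockout (log2 fold change of knockout over WT -0.29, edgeR adjusted p = 0.0177). The 9 sympathoadrenal markers reported moved both ways, with 6 lower and 1 higher. CHGB fell the most (-2.23, edgeR adjusted p = 5.25e-08), CHGA rose (1.71, edgeR adjusted p = 1.51e-07), and PHOX2A and STMN2 did not pass. In bulk RNA, fewer cells of a kind and less RNA per cell cannot be told apart.

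Of the 10 AP-1 and EGR genes, 9 had enough counts to be tested, 4 rose in the knockout, none fell and 5 did not pass. The genes that rose were FOSL2, JUN, FOS and FOSB, which is 3 of 4 FOS family genes and 1 of 3 JUN family genes. The share higher among all genes was 14.5%. Neither EGR gene tested passed. The median log2 fold change of the 9 was 0.55, and that of all genes tested was 0. Fold changes are log2 values of knockout over WT ± SE (n = 3 per group), levels are CPM after TMM scaling, and adjusted p-values are from edgeR over all genes tested.

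**Figure D1:**
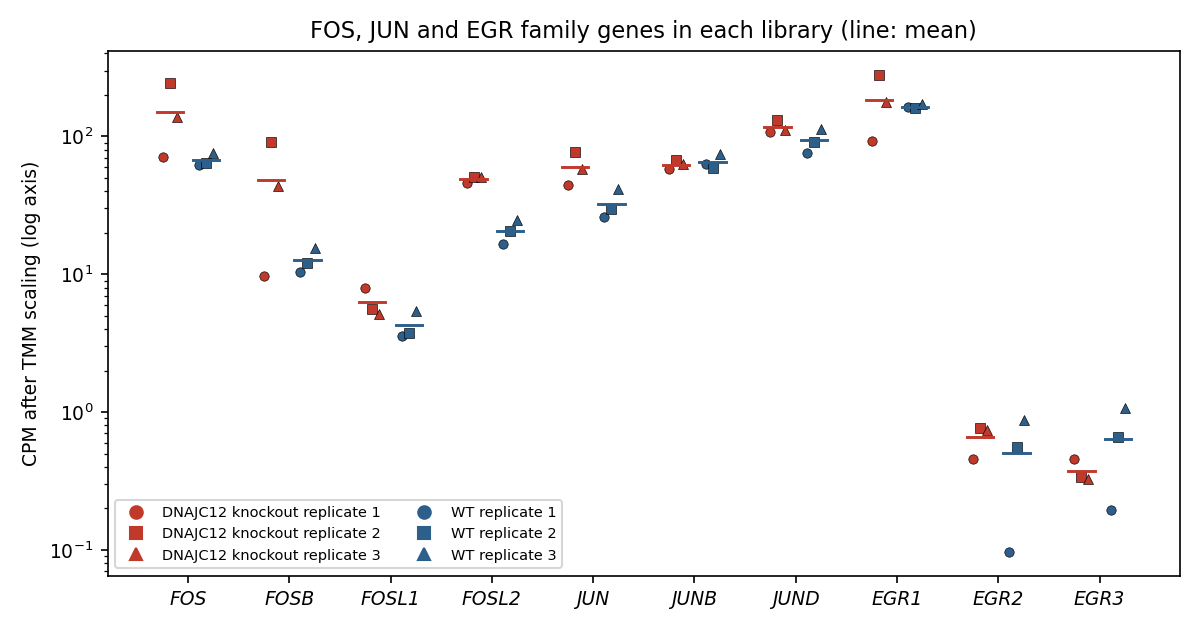
Level of each of the 10 genes (CPM after TMM scaling, log axis) in the 3 knockout (red) and 3 WT (blue) libraries, with a line at each group mean. FOSL2 and JUN lie higher in every knockout library, while FOS, FOSB and EGR1 spread widely among the knockout libraries.

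FOSL2 rose evenly in the knockout libraries. This gene, whose product FRA2 pairs with JUN proteins, lies on chromosome 2 (GRCh38.p14, 28392858 to 28417317). It had 45.7, 50.9 and 50.6 CPM in knockout replicates 1, 2 and 3, against 16.5, 20.6 and 24.6 CPM in WT replicates 1, 2 and 3. The knockout libraries differed among themselves by 1.11-fold, and the lowest of them exceeded the highest WT library. The change was 1.26 ± 0.13 (adjusted p = 4.88e-05), a 2.39-fold rise. It passed under all 15 other settings tried at a threshold of 0.05, with log2 fold changes of at least 1.12.

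JUN, the founding AP-1 gene and the usual partner of FOS, also separated the groups, but by a narrow margin. On chromosome 1 (58780791 to 58784047), it had 44.6, 77.5 and 57.6 CPM in knockout replicates 1, 2 and 3, against 25.9, 29.9 and 41.8 CPM in WT replicates 1, 2 and 3. Knockout replicate 1 was close to WT replicate 3. The change was 0.88 ± 0.21 (adjusted p = 0.00965). Without WT replicate 2 it did not pass (0.82, adjusted p = 0.0529), nor on counts built from the transcript files, which hold only part of the JUN reads (0.29, adjusted p = 0.588 summed and 0.616 length-corrected).

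FOS and FOSB rose on average and differed strongly between the knockout libraries. FOS, on chromosome 14 (75278828 to 75282230), had 70.9, 244 and 138 CPM in knockout replicates 1, 2 and 3, against 62.3, 64.6 and 75.8 CPM in the WT replicates. Knockout replicate 1 lay within the WT range and replicates 2 and 3 above it, so the groups overlapped. The change was 1.16 ± 0.33 (adjusted p = 0.0252), and the mean was 151 ± 87.1 CPM in knockout and 67.5 ± 7.21 CPM in WT libraries (SD, n = 3). Without knockout replicate 2 the log2 fold change fell to 0.63 (adjusted p = 0.0478), and without knockout replicate 1 the adjusted p was 1.07e-04 at a log2 fold change of 1.499. FOS did not pass with DESeq2 (adjusted p = 0.0638), with limma-voom (0.0628) or with any WT library left out (0.0783 to 0.0946).

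FOSB, a FOS relative, lies on chromosome 19 (45467996 to 45475179). It had 9.78, 90.7 and 43.7 CPM in knockout replicates 1, 2 and 3, against 10.5, 12.0 and 15.5 CPM in the WT replicates. Knockout replicate 1 was below every WT library, and replicate 2 held 9.27 times its level. The change was 1.93 ± 0.57 (adjusted p = 0.0304). It did not pass with DESeq2 (adjusted p = 0.0683), with limma-voom (0.169), on counts from the transcript files (0.0583 summed and 0.0525 length-corrected), with any WT library left out, or without knockout replicate 2 or 3. Without knockout replicate 2 the log2 fold change was 1.09 (adjusted p = 0.0969), and without knockout replicate 1 it was 2.41 (3.52e-05).

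**Figure D2:**
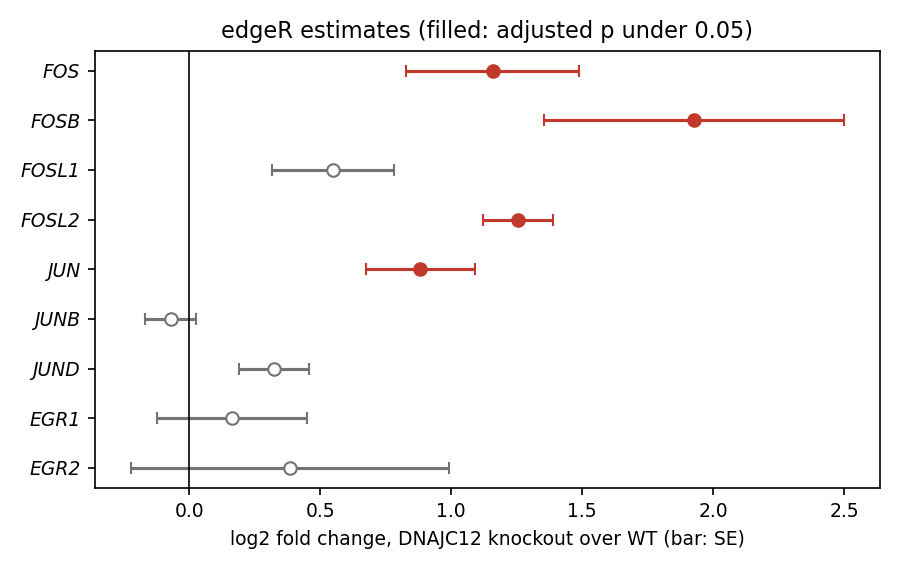
log2 fold change of knockout over WT with its SE for the 9 genes tested, from edgeR (n = 3 per group), with filled points past an adjusted p of 0.05. FOSB has the highest estimate (1.93) and, after EGR2, the widest SE, and FOSL2 (1.26) a narrow one.

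The remaining FOS and JUN genes did not pass. FOSL1, which encodes FRA1, had 7.94, 5.59 and 5.18 CPM in knockout libraries, against 3.58, 3.76 and 5.42 CPM in WT libraries (0.55 ± 0.23, adjusted p = 0.114). Here knockout replicate 1 was the highest of the knockout libraries, and the groups overlapped. JUND had 108, 132 and 112 CPM, against 75.5, 91.7 and 114 CPM in WT libraries (0.32 ± 0.13, adjusted p = 0.106). WT replicate 3 overlapped the knockout libraries, and without it JUND passed (0.48, adjusted p = 0.0214). JUNB, often an inhibitor of JUN-driven transcription, averaged 62.5 ± 4.68 CPM in knockout and 65.6 ± 7.77 CPM in WT libraries (SD, n = 3), with 1132, 1391 and 1346 counts in knockout and 1305, 1169 and 1453 counts in WT libraries. The groups overlapped, with a change of -0.07 ± 0.10 (adjusted p = 0.662).

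EGR1 had the highest CPM of the 10 genes in 5 of the 6 libraries, all but knockout replicate 1, and no change that passed. It lies on chromosome 5 (138465479 to 138469303) and had 93.1, 281 and 179 CPM in knockout replicates 1, 2 and 3, against 162, 160 and 172 CPM in the WT replicates. The knockout libraries lay on both sides of the WT libraries, which differed among themselves by only 1.08-fold. The change was 0.16 ± 0.29 (adjusted p = 0.732). It turned to -0.27 (adjusted p = 0.352) without knockout replicate 2, and passed at 0.48 (adjusted p = 0.0266) without knockout replicate 1.

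EGR2 and EGR3 had few counts. EGR2, on chromosome 10, had 9, 16 and 16 counts in knockout libraries, against 2, 11 and 17 counts in WT libraries (0.38 ± 0.61, adjusted p = 0.703). EGR3 had 9, 7 and 7 counts, against 4, 13 and 21 counts in WT libraries, and was removed by the filter on low counts. With no filter its estimate was -0.78 (edgeR adjusted p = 0.464). The WT libraries differed by 8.98-fold for EGR2 and 5.54-fold for EGR3, more than the difference between the group means. A floor of 3 counts corresponds to 0.137 to 0.155 CPM.

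Across the members, the same knockout library tended to be low and the same one high. Knockout replicate 1 was the lowest and replicate 2 the highest of the knockout libraries for 8 of 9 genes tested, the exception being FOSL1, while 28.7% of all genes tested had that order. The 3 knockout values lay apart from the 3 WT values for 2 of the 9 genes (FOSL2 and JUN), against 41.7% of all genes (21.7% with the knockout above WT and 20.1% below). Among the 13647 genes averaging 2 CPM or more, the SD of log2 CPM between knockout libraries was 1.63 for FOSB, 0.89 for FOS and 0.80 for EGR1, against a median of 0.14. In WT libraries it was 0.29, 0.15 and 0.06 for the same genes, against a median of 0.10. By contrast FOSL2 varied less than the median gene in the knockout (0.09) and more in WT (0.29). DNAJC12 differed by 1.22-fold between the knockout libraries and did not follow this order. Sampling noise was exceeded by the most between knockout replicates 1 and 2 (chi-square per gene of 21.0, where sampling alone gives about 1, against 4.22 to 8.94 for the other pairs). Whether the handling or the growth state of the cultures differed was not tested.

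Per unit length the members ranked differently. TPM, which divides by transcript length, allows levels to be compared between genes. In WT libraries the means were 90.6 ± 18.0 for JUND, 75.8 ± 1.56 for EGR1, 71.3 ± 3.76 for FOS and 58.1 ± 5.97 for JUNB (SD, n = 3), and the ranges of JUND and EGR1, and of EGR1 and FOS, overlapped, while JUNB lay below FOS in every WT library. FOSB (6.17 ± 0.572), FOSL2 (4.30 ± 0.589) and FOSL1 (3.99 ± 0.738) followed far below, the ranges of FOSL2 and FOSL1 overlapping, and EGR2 and EGR3 averaged 0.273 and 0.209. In knockout libraries FOS (128 ± 56.9) and JUND (109 ± 15.9) were highest, with EGR1 at 81.4 ± 42.4, JUNB at 53.0 ± 4.85, FOSB at 22.4 ± 17.7, FOSL2 at 9.57 ± 0.661 and FOSL1 at 5.66 ± 1.03, but the order was not the same in every library. The ranges of FOS, JUND and EGR1 overlapped, and in knockout replicate 1 EGR1 (40.6 TPM) was below JUNB (48.1 TPM) and FOSB (4.90 TPM) below FOSL2 (8.82 TPM) and FOSL1 (6.83 TPM). JUN cannot be placed in this order, because the GENCODE release 29 transcripts used to assign reads held 52.3% to 100% of its gene table counts per library. For EGR2 this share was 59.2% to 100%, and for the other 8 genes it was at least 99.8%.

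**Figure D3:**
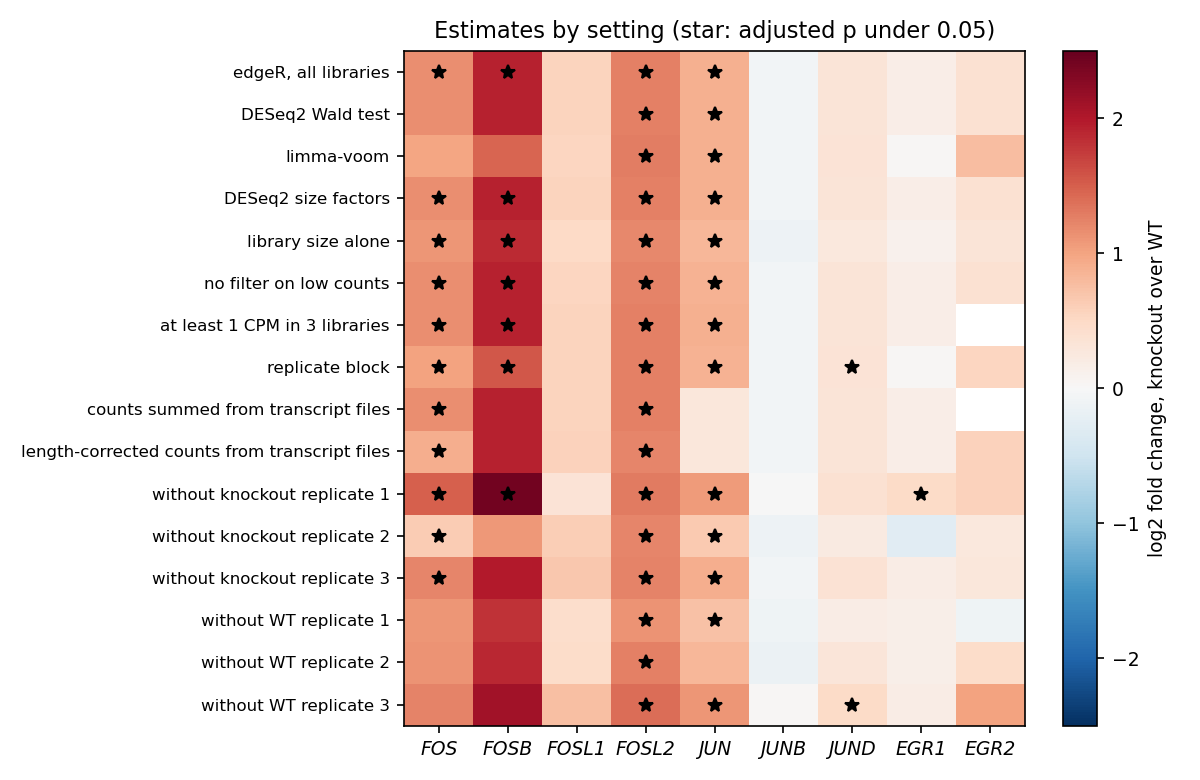
Heat map of the log2 fold change of knockout over WT (colour) for the 9 members tested, with edgeR on all libraries in the top row and 1 alternative setting in each row below. Stars mark an adjusted p under 0.05 and blank cells a gene that could not be tested. FOSL2 stays at 1.12 or above throughout, while FOSB ranges from 1.09 to 2.41 and EGR1 lies on both sides of 0.

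FOS made up most of the FOS family RNA in every library. Summed over the 4 genes, the family had 97.5, 245 and 155 TPM in knockout replicates 1, 2 and 3, against 84.1, 81.5 and 91.6 TPM in the WT replicates. FOS accounted for 78.9%, 77.3% and 76.3% of it in the knockout libraries and 84.6%, 82.9% and 82.0% in the WT libraries, which did not overlap. FOSB held 5.02%, 16.5% and 14.2% in knockout libraries, and at most 7.43% in a WT library. FOSL2 held 9.04%, 4.10% and 6.34%, against 4.43%, 5.23% and 5.35%. Within knockout replicate 1, FOSL2 and FOSL1 thus took a larger share of the family than in any other library.

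The transcript files show where the FOS reads lay. FOS-201 (ENST00000303562) had 30.2, 159 and 76.9 TPM in knockout replicates 1, 2 and 3, against 27.2, 32.0 and 36.5 TPM in the WT replicates. The other 9 FOS transcripts together had 46.8, 30.9 and 41.5 TPM in knockout and 43.9, 35.6 and 38.6 TPM in WT libraries, with no such difference between libraries. For FOSB, the 10 coding transcripts had 2.10, 28.0 and 12.2 TPM in knockout and 2.52, 3.52 and 5.04 TPM in WT libraries, and the 2 transcripts annotated as retained introns 2.80, 12.3 and 9.90 TPM in knockout and 3.46, 2.18 and 1.77 TPM in WT libraries. Both FOSB groups were therefore high in knockout replicates 2 and 3. FOSB-201 was estimated at 741 and 240 reads in knockout replicates 2 and 3 and listed at 0 in the other 4 libraries, where reads went to other FOSB transcripts. FOSL2 reads lay almost wholly in FOSL2-201, with 8.82, 9.92 and 9.52 TPM in knockout and 3.36, 3.99 and 4.90 TPM in WT libraries. JUN-201 had 458, 916 and 695 reads in knockout and 354, 454 and 817 reads in WT libraries, and only in WT replicate 3 did this equal the gene table's count. Splits between overlapping transcripts are estimates.

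**Figure D4:**
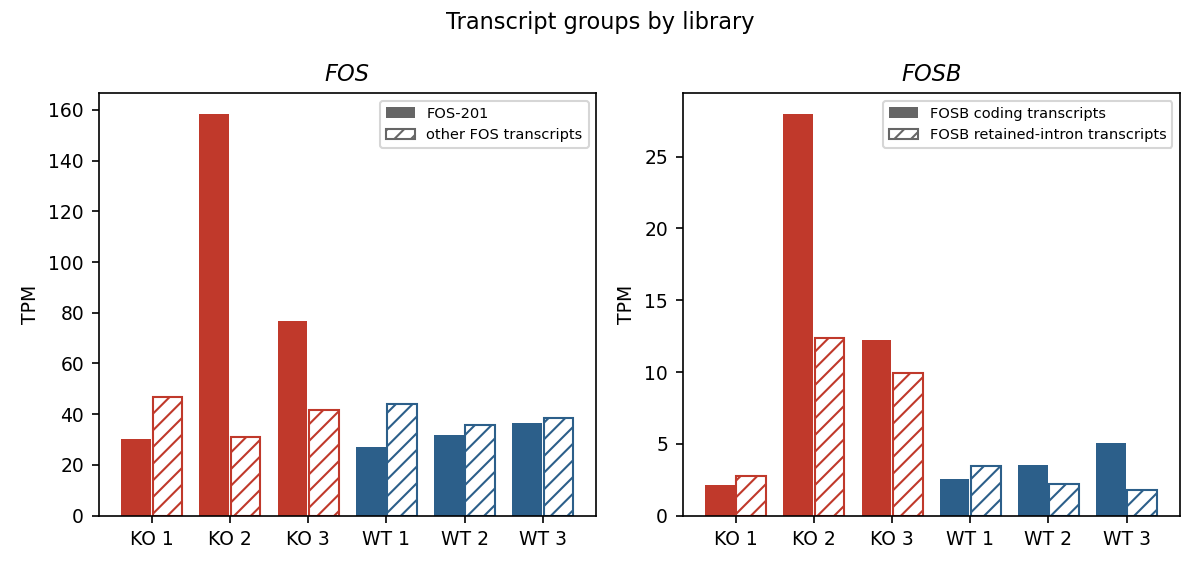
TPM per library for FOS-201 and the other 9 FOS transcripts (left), and for the coding and retained-intron transcripts of FOSB (right), with knockout (KO) libraries in red and WT in blue. FOS-201 reaches 159 TPM in KO 2 while the other FOS transcripts stay between 30.9 and 46.8 TPM in all libraries.

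Other genes of the pathway were taken from 6 lists. Among the factors that pair with FOS or JUN, 2 of 10 tested were higher in the knockout and the other 8 missed the threshold, where 14.5% of all genes were higher. MAFK, a small MAF protein without an activation domain, had 18.4 ± 2.01 CPM in knockout and 7.61 ± 1.05 CPM in WT libraries (1.27 ± 0.14, adjusted p = 6.35e-05). JDP2, a repressor that pairs with JUN, had 20.7 ± 3.03 and 11.0 ± 0.930 CPM in these groups (0.91 ± 0.13, adjusted p = 4.81e-04). ATF7 (0.22 ± 0.11, adjusted p = 0.186) and MAFG (-0.12 ± 0.07, adjusted p = 0.232) followed. The median of the list was 0.21. The EGR corepressor genes NAB1 (-0.10 ± 0.12) and NAB2 (-0.04 ± 0.17) did not pass (edgeR adjusted p = 0.606 and 0.890).

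Among 34 upstream regulators with enough counts, 6 were higher, 1 was lower and 27 missed the threshold (median 0.10). Over all genes 14.5% were higher and 11.5% lower, so the list as a whole was near the background. All 3 JNK genes, whose kinases phosphorylate JUN, rose: MAPK10 (1.04 ± 0.13, edgeR adjusted p = 1.30e-04), MAPK9 (0.83 ± 0.09, adjusted p = 7.47e-05) and MAPK8 (0.59 ± 0.08, adjusted p = 3.91e-04). MAPK9 lies in a raised stretch of chromosome 5, where 63 of 71 neighbours tested within 5 Mb were higher (median 0.69). EGR1, on the same chromosome, lies outside it: of 134 neighbours tested within 5 Mb, 22 were higher and 14 lower (median 0.04). Around FOSL2 17 of 87 neighbours were higher and 9 lower, and around JUN 5 of 38 were higher and 9 lower. RPS6KA2, which encodes an RSK kinase downstream of ERK, had 307 ± 46.2 CPM in knockout and 112 ± 11.5 CPM in WT libraries (1.45 ± 0.11, adjusted p = 5.15e-06).

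Among 26 other immediate early genes with enough counts, 9 were higher, 4 were lower and 13 missed the threshold (median 0.18), where 14.5% of all genes were higher and 11.5% lower. Of the 26, 18 had knockout replicate 1 lowest and replicate 2 highest of the knockout libraries, an order found in 28.7% of all genes. CCN1, which encodes a matricellular protein, had 71.9 ± 14.3 CPM in knockout and 16.1 ± 6.69 CPM in WT libraries (2.16 ± 0.24, edgeR adjusted p = 8.19e-05). HBEGF, the gene of an EGF receptor ligand, had 72.5 ± 12.8 and 16.7 ± 9.07 CPM in these groups (2.12 ± 0.31, adjusted p = 4.82e-04). GADD45B (1.62 ± 0.23, adjusted p = 3.65e-04) and CCN2 (3.34 ± 0.49, adjusted p = 4.72e-04) rose at low levels, with 1.58 ± 0.0880 CPM of CCN2 in knockout and 0.152 ± 0.0897 CPM in WT libraries. The 4 that fell, named after their values were seen, were IER2 (-0.50 ± 0.11, adjusted p = 0.00785), BTG2 (-0.53 ± 0.09, 0.00105), NR4A1 (-0.84 ± 0.20, 0.0105) and NR4A2 (-3.02 ± 0.70, 0.00912, below 1 CPM in all libraries). Immediate early genes thus moved in both directions.

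**Figure D5:**
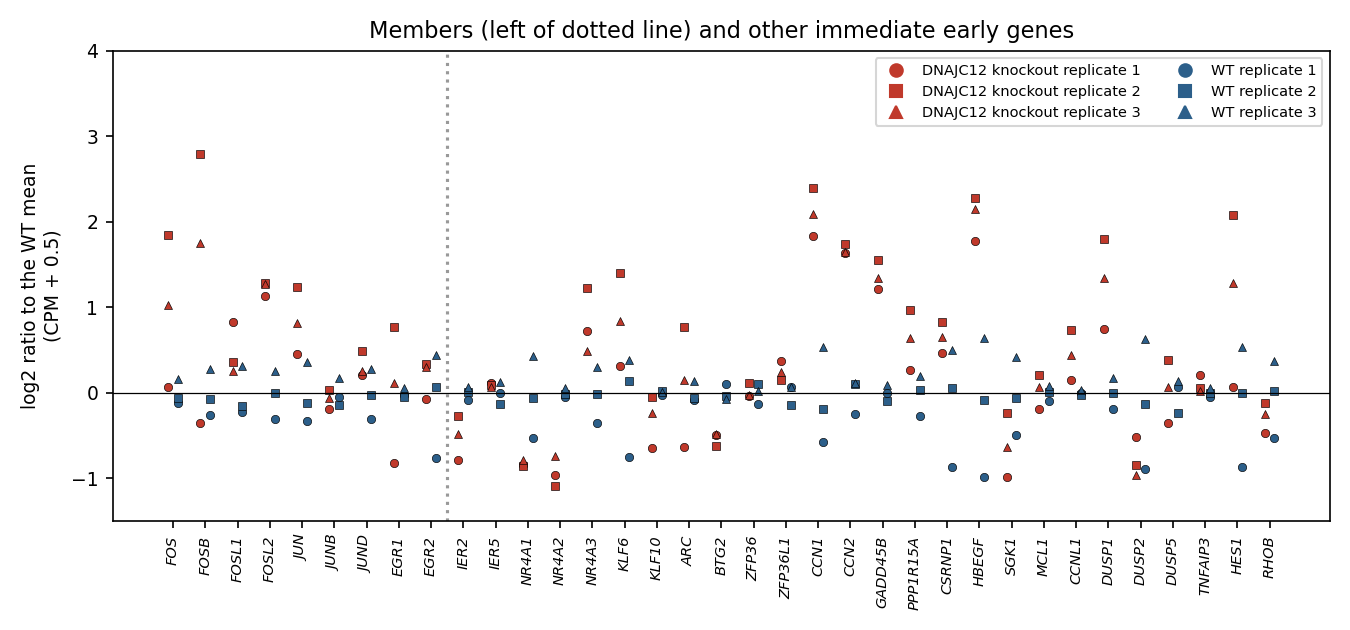
log2 ratio of each library to the WT mean (CPM with 0.5 added) for the 9 members tested and 26 other immediate early genes, with knockout libraries in red and WT in blue. Circles, squares and triangles are replicates 1, 2 and 3, and knockout replicate 2 lies above knockout replicate 1 for FOS, FOSB, EGR1 and JUN.

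Genes described as AP-1 targets moved both ways as well: of 13 with enough counts, 6 were higher, 2 were lower and 5 missed the threshold (median 0.24). The intermediate filament gene VIM had 3261 ± 120.5 CPM in knockout and 2086 ± 129.6 CPM in WT libraries (0.64 ± 0.06, adjusted p = 1.79e-05). PLAU, which encodes urokinase, rose by 0.92 ± 0.12 (adjusted p = 2.77e-04). The collagenase gene MMP1 had 81 counts over the knockout libraries and 0 over the WT libraries. It was thus at least 26.2-fold higher when 3 counts are taken as the floor for the whole WT group. MMP1 is among the 6, but passed the filter on low counts through its knockout libraries alone. MMP3, MMP9, MMP10 and NPPB also had 0 counts over the WT libraries. With 15, 14, 34 and 33 counts over the knockout libraries, they were removed by that filter and are not among the 13. CCND1, the gene of cyclin D1, fell (-0.88 ± 0.13, adjusted p = 4.88e-04). Among 14 EGR1 targets with enough counts, 5 were higher, 3 were lower and 6 missed the threshold (median 0.20). SYN1, a synaptic vesicle gene, rose by 4.05 ± 0.26 (adjusted p = 1.19e-06) from a low WT level. It had 125, 159 and 185 counts in knockout and 8, 9 and 10 counts in WT libraries. The fibronectin gene FN1 rose by 0.43 ± 0.08 (adjusted p = 0.00199), while IGF2 (-1.67 ± 0.16, 2.14e-05) and the tissue factor gene F3 (-1.30 ± 0.24, 0.00218) fell. The share called among all genes was 26.0%.

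The genes whose log2 CPM over the 6 libraries was most like that of FOS, JUN and EGR1 were taken from 13056 genes with a symbol and at least 2 CPM. For FOS these were SOCS5, CBX1 and SCYL2, for JUN they were SBDS, DDX47 and ACBD5, and for EGR1 they were SUCO, DEPDC1 and G2E3. Pearson's r lay between 0.992 and 0.999 over the 6 libraries, values picked as the highest of many. SBDS rose by 0.50 ± 0.14 (edgeR adjusted p = 0.0264), and the other 8 genes did not pass. SOCS5 had 31.6, 45.2 and 38.2 CPM in knockout replicates 1, 2 and 3, against 30.2, 30.2 and 31.4 CPM in WT libraries, and SUCO had 35.6, 60.1 and 46.9 CPM, against 44.7, 44.9 and 46.2 CPM.

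Summed levels of cell type markers differed between libraries. The 7 fibroblast markers summed to 728, 602 and 679 CPM in knockout replicates 1, 2 and 3, against 704, 685 and 649 CPM in WT replicates 1, 2 and 3, with 3 of 7 higher and 2 lower. The sum was therefore lowest in knockout replicate 2, where FOS was highest, and highest in knockout replicate 1. Most of that difference was THY1, with 339, 238 and 294 CPM in knockout replicates 1, 2 and 3. COL1A1 and PDGFRB had the same order as THY1, but PDGFRA, COL1A2 and LUM were highest in knockout replicate 2. DCN was lowest in knockout replicate 3. The 5 Schwann cell markers, mostly PMP22, summed to 72.9, 63.9 and 62.3 CPM in knockout libraries, against 117 to 121 CPM in WT libraries, with 1 of 4 tested lower. The 2 blood markers measured, nearly all CD68, summed to 26.3, 20.7 and 17.8 CPM in knockout libraries, against 10.1 to 13.9 CPM in WT libraries, with CD68 higher (0.95 ± 0.17, edgeR adjusted p = 0.00210). Among the knockout libraries, both sums were highest in replicate 1. The 9 sympathoadrenal markers reported summed to 3954 to 4033 CPM in knockout and 4778 to 4978 CPM in WT libraries. Of these, 1 was higher and 6 were lower, and the sums did not overlap. The largest single difference was in CHGB, with 156 ± 15.6 CPM in knockout and 729 ± 62.5 CPM in WT libraries. CHGA ran the other way, with 344 ± 13.6 CPM in knockout and 105 ± 10.8 CPM in WT libraries (SD, n = 3). The part of these differences in the results was not tested.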

How the data were processed

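RNA from 6 SH-SY5Y libraries (3 DNAJC12 knockout, 3 WT) was rRNA-depleted and made into stranded libraries, per the labels' protocols. Salmon 1.10.0, cutadapt 3.5, DESeq2 1.42.1, FastQC and the build GRCh38.p14 are named, without roles, per the submitters' processing notes. The annotation release and strand setting are not given in the sources used here. Values in the deposited gene table are whole-number estimated counts without normalization. The deposited transcript files hold estimated counts, effective lengths and TPM per transcript, per the file headers.

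Repeated rows (403) were removed, leaving 20668 genes. Counts were filtered with filterByExpr, scaled by TMM and tested with edgeR 4.0.16 (R 4.3.3), quasi-likelihood, two-sided, on genotype, with Benjamini-Hochberg adjustment over 16403 genes. Each SE was derived from the log2 fold change and its F statistic. TPM was summed per gene through GENCODE release 29, which holds 201667 of 251955 transcripts. The test was tested on simulated data. The members and lists were chosen with earlier results of these data known. The rule named all members and, per list, the 4 tested genes with the smallest adjusted p. Floors cover counting error only. Some listed genes without a row are not analysed here. A marker gene is not reported here.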

Additional observations from a re-analysis of the deposited data

How the results depend on the processing

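FOSL2 passed under all 15 alternatives at a threshold of 0.05, JUN under 12, FOS under 10 and FOSB under 6. Of the 10 genes, 4 passed with all libraries, against 2 with DESeq2, 2 with limma-voom, 2 on counts summed from the transcript files and 2 on length-corrected ones, 2 at a threshold of 0.01, and 1 to 5 with 1 library left out. The lowest count, 1, was without WT replicate 2, and 2 passed without WT replicate 1. On transcript-file counts JUN was 0.29 (edgeR adjusted p = 0.588 summed and 0.616 length-corrected). The transcripts assigned to JUN held 52.3%, 56.9% and 56.3% of its gene table counts in knockout replicates 1, 2 and 3. In WT replicates 1, 2 and 3 they held 66.3%, 77.1% and 100%. The rise of JUN in the gene table thus rests in part on reads outside these transcripts. With 1 library left out, estimates changed sign for JUNB (-0.143 to 0.0238, positive without WT replicate 3), EGR1 (-0.275 to 0.482, negative without knockout replicate 2) and EGR2 (-0.113 to 1.01, negative without WT replicate 1). Over all genes 4270 passed, against 2846 on length-corrected counts, 2663 at a threshold of 0.01 and 2966 to 4772 with 1 library left out. With the replicate block 5 members passed, JUND in addition (0.34, adjusted p = 0.0265), and 4565 genes. The labels do not say whether the replicate numbers pair the libraries. Deviations from the group means correlated at 0.059, -0.03 and -0.065 between same-numbered libraries. With 3 libraries per group these values cannot settle whether they were paired. List genes called stayed within 28 to 45 of a main 37. EGR2 and EGR3 rest on at most 21 counts per library.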

Other observations

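Among 10482 genes with a symbol and a mean of at least 10 CPM, those that varied most between the knockout libraries included several of the genes described above. By the SD of log2 CPM, FOSB was at rank 1 (1.63), the Notch response gene HES1 at rank 2 (1.03), FOS at rank 4 (0.89), EGR1 at rank 5 (0.80) and the stress-induced factor gene ATF3 at rank 9 (0.68). The ranks depend on the cutoff: among the 13647 genes averaging 2 CPM or more, FOSB was at rank 24, HES1 at 39, FOS at 52 and EGR1 at 59. HES1 had 57.8 and 33.1 CPM in knockout replicates 2 and 3 and was within the WT range of 7.07 to 19.5 CPM in knockout replicate 1. ATF3 had 6.16, 15.7 and 11.3 CPM, against 6.39, 10.6 and 12.1 CPM. Some other genes ran in the opposite order: the VIP receptor gene VIPR2 had 54.3, 18.4 and 33.9 CPM in knockout replicates 1, 2 and 3, against 3.92, 4.26 and 2.81 CPM in WT. The ranking at 10 CPM or more was made after the values of the members had been seen.

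The WT libraries also differed in immediate early genes, members among them. HBEGF had 8.18, 15.7 and 26.2 CPM in WT replicates 1, 2 and 3, NR4A1 21.7, 30.3 and 43.0 CPM, and CSRNP1 3.15, 6.45 and 8.95 CPM. Among the members, JUN (25.9, 29.9 and 41.8 CPM) and FOSL2 (16.5, 20.6 and 24.6 CPM) rose in the same order, while JUNB and EGR1 did not. The share of all genes with this order was not counted, so it cannot be called a trait of the members. FOS and EGR1 differed by only 1.22-fold and 1.08-fold at most between these libraries. In knockout libraries NR4A1 was nearly even, at 17.4, 17.3 and 18.2 CPM. These genes were chosen after their values were seen.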
